A study of Mus musculus with 8 samples.

Results

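The genes described here are 10 members of the Notch pathway, the receptors Notch1, Notch2 and Notch3, the ligands Jag1, Jag2 and Dll1, and the effectors Hes1, Hey1, Hey2 and Heyl. They were taken by name from a table of 56748 genes, and all 10 passed the filter on low counts that left 21508 genes for testing. Each symbol stood for 1 Ensembl identifier. Transcripts were counted by bulk RNA sequencing in 8 libraries of tdTomato-positive cells sorted from mandibular molars of mice at postnatal day 10, after tamoxifen at postnatal day 3. In 4 libraries the genotype was Ctnnb1(-/-) (cKO, both copies of the beta-catenin gene conditionally deleted), and in 4 it was Ctnnb1(+/-) (cHet, 1 copy conditionally deleted), so that both groups carried the tamoxifen pulse and at least 1 deleted copy and no wild-type group was included. The labels call the cells CXCL12+ apical papilla cells, the tissue dental pulp and the dissociated material dental follicle, and they name neither the Cre driver nor the strain. Libraries are called by their column names, and whether each came from a separate animal is not stated, so that the p-values rest on a spread that may be technical.

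Notch receptors are single-pass membrane proteins that are switched on by ligands of the Jagged and Delta families on a neighbouring cell. Ligand binding leads to cleavage by an ADAM protease and then by gamma-secretase, and the released intracellular part enters the nucleus, where it joins the DNA-binding protein RBPJ and Mastermind proteins to activate genes of the Hes and Hey families of repressors. In teeth the pathway is known from the dental epithelium, the pulp and its vessels, and JAG1, NOTCH3 and HEYL are also known from the smooth muscle and pericytes of blood vessels.

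Total counts lay between 44444033 and 50051392 per library. Ctnnb1 stood at 277 ± 39.2 CPM (counts scaled to library size) in cKO and 257 ± 40.2 CPM in cHet (SD, n = 4 each, edgeR adjusted p = 0.785), and counts over the whole gene cannot check the genotype, since the labels leave the deleted exons unnamed. Cxcl12 averaged 826 CPM in cKO and 149 CPM in cHet, and the 11 papilla and pulp markers summed to 2956 to 5741 CPM in cKO, against 553 to 1454 CPM in cHet. Transcripts of olfactory sensory neurons, which the labels do not mention, were present in every library, with the 10 tested markers summing to 6089.9 to 7572 CPM in cKO and 6996 to 12628 CPM in cHet. The 12 general mesenchyme markers summed to 13191 to 25788 CPM in cKO and 3625 to 11947 CPM in cHet. Of the 11 marker lists the papilla list alone reached the smallest exact permutation p of 0.0286 for its mean log2 CPM (two-sided, 0.314 adjusted over the 11 lists), and for general mesenchyme the difference was 1.12 on the log2 scale (exact permutation p = 0.0571). The remaining lists (endothelium, mural cells, dental epithelium, ameloblasts, macrophages, neutrophils, olfactory neurons, olfactory supporting cells and glia) had exact permutation p-values between 0.0857 and 0.714. In bulk samples, fewer cells of a type and less RNA per cell cannot be told apart.

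Jag1 was the 1 Notch gene of the 10 that passed the test, with a 2.57-fold higher level in cKO. None of the 10 passed in the lower direction. Over all tested genes 1.08% were called higher and 0.0558% lower, at an adjusted p under 0.05 in edgeR's quasi-likelihood test with Benjamini-Hochberg adjustment, and a lone call among 10 genes does not set them apart from that share. At an unadjusted p under 0.05, 4 of the 10 (Jag1, Hey1, Hes1 and Notch2) were higher and 0 lower, against 10.8% and 6.33% of all tested genes. The median log2 fold change of the 10 was 0.75, against −0.03 over all tested genes, and 7 were positive and 3 negative. DESeq2 called 4 of the 10 higher (the same 4 genes), where it called 8.64% of its genes higher, and limma voom called 3 (Jag1, Hey1 and Notch2), where it called 5.96%. On simulated data, 68 of 252 DESeq2 calls were false, more than its threshold allows, against 5 of 172 by edgeR and 5 of 163 by voom. Those counts were drawn with the dispersion trend fitted by edgeR, with no scatter between genes and no outlying library. The simulation therefore cannot rank the tools on the real data. A call made by only some of the tools is read with caution, whichever they are. In edgeR none of the 10 was called with RLE factors (0.832% of all genes higher), library size alone (0.888%), robust dispersions (0.953%), or a mesenchyme or olfactory neuron score as covariate (0.0465% and 0.00465%), and 2 were called higher at a threshold of 0.10 (3.27%).

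**Figure D1:**
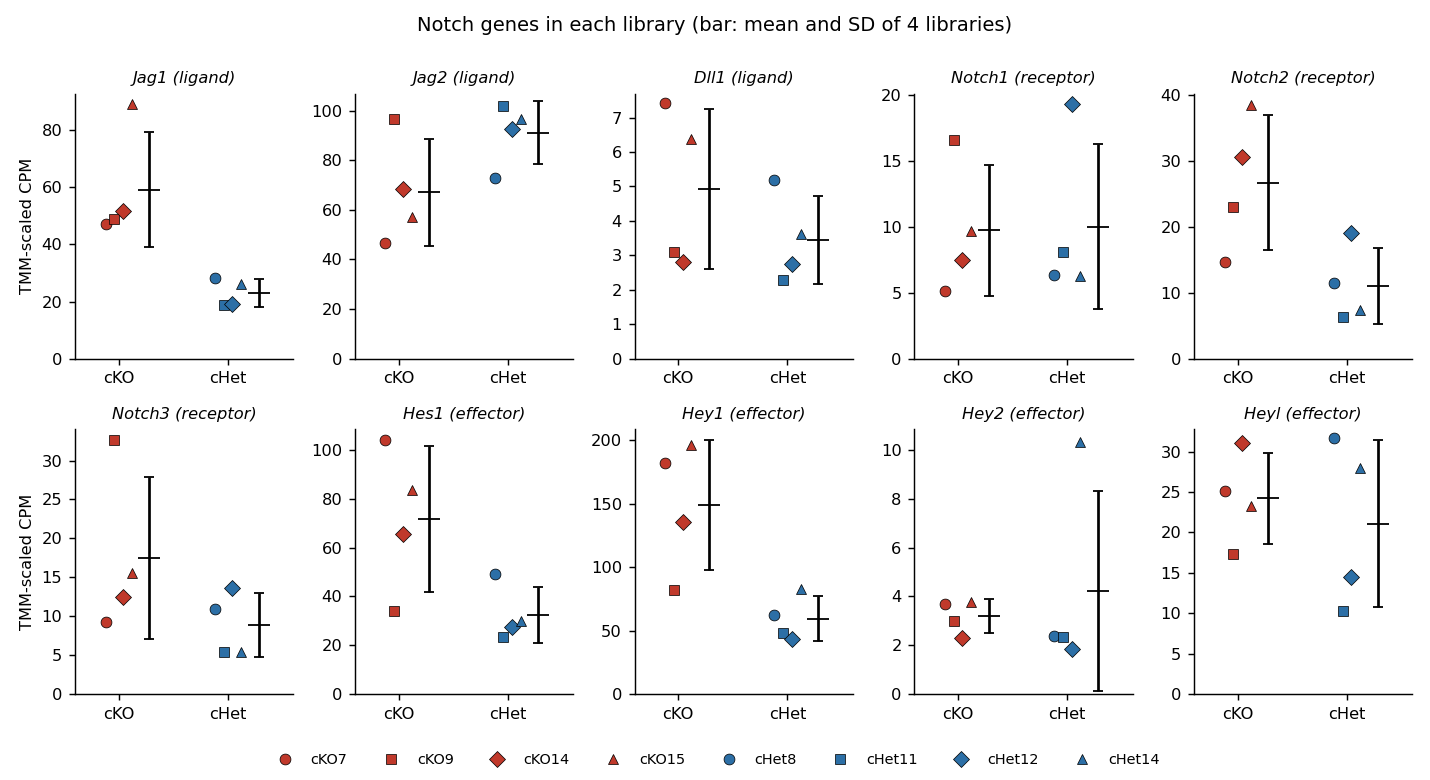
TMM-scaled CPM of the 10 Notch genes (y axis, 1 panel per gene) in the 4 cKO libraries (red, left) and the 4 cHet libraries (blue, right), each library with its own symbol. The black bar is the mean with its SD. Jag1 is the panel in which every cKO library lies above every cHet library.

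Among the ligands, Jag1, which encodes Jagged1, had 47.0 CPM in cKO7, 48.9 in cKO9, 51.9 in cKO14 and 89.2 in cKO15, against 28.1 CPM in cHet8, 18.7 in cHet11, 19.1 in cHet12 and 26.3 in cHet14. Every cKO library lay above every cHet library, and cKO15 stood well above the other 3 cKO libraries. Jag1 averaged 59.3 ± 20.1 CPM in cKO and 23.1 ± 4.86 CPM in cHet (SD, n = 4 each), a log2 fold change of 1.36 (SE 0.25, edgeR adjusted p = 0.0497). Groups did not overlap in the same direction for 6.46% of all tested genes. The call lay at the threshold and ended without any 1 of cKO7, cKO14, cKO15, cHet8, cHet11, cHet12 or cHet14 (adjusted p from 0.0657 to 0.157), while the log2 value in the 8 such fits, the 1 without cKO9 included, lay between 1.10 and 1.47. The call also ended with RLE factors (edgeR adjusted p = 0.0557). Beside Jag1, 10 of the 12 general mesenchyme markers had a positive log2 fold change and 1 of them (Prrx1, 3.48-fold) was called higher, while Dcn (log2 −1.04, edgeR adjusted p = 0.257) and Lum (log2 −0.66, edgeR adjusted p = 0.545) had the opposite sign. When the score of these markers entered the fit as a covariate the log2 value was 0.93 (SE 0.32, edgeR adjusted p = 0.514), and when the olfactory neuron score did so it was 1.04 (SE 0.34, edgeR adjusted p = 0.639). The mesenchyme score ran from 7.86 to 8.90 in cKO and from 6.31 to 8.03 in cHet. The olfactory neuron score ran from 8.40 to 8.85 in cKO and from 8.69 to 9.40 in cHet. Each score thus went largely with genotype, and a fit of 8 libraries cannot separate score from genotype. This limit holds for every covariate fit given here.

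Jag2, which encodes Jagged2, showed the opposite sign. It had 46.7 CPM in cKO7, 96.6 in cKO9, 68.2 in cKO14 and 56.9 in cKO15, against 72.8 CPM in cHet8, 102 in cHet11, 92.4 in cHet12 and 96.7 in cHet14. The groups overlapped through cKO9 alone, which lay among the cHet libraries. The means were 67.1 ± 21.5 CPM in cKO and 91.0 ± 12.7 CPM in cHet (log2 −0.44, SE 0.22, edgeR adjusted p = 0.361). Without cKO9 the groups no longer overlapped and the log2 value was −0.67 (edgeR adjusted p = 0.0728). Fits over all 8 libraries with a covariate gave −0.05 (mesenchyme score) and −0.11 (olfactory neuron score). Dll1, which encodes the ligand Delta-like 1, was scarce, between 2.80 and 7.42 CPM in cKO and between 2.28 and 5.18 CPM in cHet (log2 0.51, SE 0.43, edgeR adjusted p = 0.608), and its log2 value turned to −0.16 with the mesenchyme covariate.

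The promoters of the Jagged genes are shown because their transcripts had opposite signs, and that of Hey2 because it is the 1 member promoter at hand with a match to the RBPJ core. Sequences are from RefSeq (GRCm38.p6), not from the build of the counts, and run 5′ to 3′ on the gene's strand from 250 bases before to 50 bases after the start. Capitals mark matches on either strand to the RBPJ core TGGGAA or the TCF/LEF core CTTTGA, which do not overlap each other here.
Jag1 promoter, chr2:137116471-137116770, minus strand: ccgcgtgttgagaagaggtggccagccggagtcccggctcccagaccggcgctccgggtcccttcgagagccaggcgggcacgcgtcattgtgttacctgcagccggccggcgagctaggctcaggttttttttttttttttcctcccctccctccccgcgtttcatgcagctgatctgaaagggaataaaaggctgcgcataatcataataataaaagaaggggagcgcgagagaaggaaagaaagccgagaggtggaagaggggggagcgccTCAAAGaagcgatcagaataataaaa
Jag2 promoter, chr12:112929446-112929745, minus strand: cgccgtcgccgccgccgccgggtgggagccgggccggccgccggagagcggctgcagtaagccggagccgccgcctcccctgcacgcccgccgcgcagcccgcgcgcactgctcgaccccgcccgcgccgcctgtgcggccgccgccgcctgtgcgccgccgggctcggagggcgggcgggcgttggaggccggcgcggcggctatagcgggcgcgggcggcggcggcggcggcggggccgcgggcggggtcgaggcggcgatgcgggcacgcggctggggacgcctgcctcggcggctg
Hey2 promoter, chr10:30842734-30843033, minus strand: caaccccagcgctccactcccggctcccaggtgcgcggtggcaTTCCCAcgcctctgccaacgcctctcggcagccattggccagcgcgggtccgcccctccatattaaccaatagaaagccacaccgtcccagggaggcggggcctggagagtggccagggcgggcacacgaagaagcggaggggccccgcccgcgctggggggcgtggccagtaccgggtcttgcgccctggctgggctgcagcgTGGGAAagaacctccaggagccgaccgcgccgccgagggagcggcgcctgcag

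The table held promoters of 7 of the 10 genes (not of Hes1, Hey1 and Heyl), with 2 starts for Dll1. The Jag1 window held 1 TCF/LEF core match, in the transcribed part, and no RBPJ core match, the Jag2 window held neither, and the Hey2 window held 2 RBPJ core matches. Of 32851 promoter windows of this length, 25.6% held the RBPJ core and 16.0% the TCF/LEF core. The Jag1 and Jag2 windows differed in composition, with 22 CpG dinucleotides and 55.7% G or C in Jag1, and 63 and 86.0% in Jag2. Over all 32851 windows the medians were 7 and 52.7%, and the windows of the other members held 15 to 41 CpG dinucleotides. A link between composition and transcript level was not tested. A match is a description of the letters and does not show binding.

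The receptors did not pass the test. Notch2 had 14.7 CPM in cKO7, 23.0 in cKO9, 30.7 in cKO14 and 38.6 in cKO15, against 11.5 CPM in cHet8, 6.26 in cHet11, 19.1 in cHet12 and 7.39 in cHet14. The groups overlapped because cHet12 lay above cKO7. Its means were 26.7 ± 10.2 CPM in cKO and 11.1 ± 5.81 CPM in cHet (log2 1.27, SE 0.42, edgeR adjusted p = 0.185), and DESeq2 (adjusted p = 0.0241) and voom (adjusted p = 0.0383) called it higher. In the fit that holds the mesenchyme score, the log2 value of Notch2 was 0.49 (SE 0.48).

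Notch3, the receptor known from mural cells, had 9.23 CPM in cKO7, 32.6 in cKO9, 12.5 in cKO14 and 15.5 in cKO15, against 10.9 CPM in cHet8, 5.41 in cHet11, 13.6 in cHet12 and 5.44 in cHet14. The mean in cKO rested on cKO9 and the groups overlapped (17.5 ± 10.4 CPM in cKO, 8.84 ± 4.09 CPM in cHet, log2 0.98, SE 0.47, edgeR adjusted p = 0.336), with a log2 value of 0.49 without cKO9. The 10 mural markers summed to 202 to 443 CPM in cKO and 128 to 353 CPM in cHet. Of these, 6 had a positive and 4 a negative log2 fold change. Cspg4 rose 2.97-fold (37.2 ± 9.40 CPM in cKO and 12.6 ± 3.38 CPM in cHet, edgeR adjusted p = 0.0421), and Abcc9 (4.05-fold, edgeR adjusted p = 0.0658) and Kcnj8 (3.26-fold, edgeR adjusted p = 0.146) had large values that did not pass. Rgs5 (1.05-fold) and Acta2 (1.04-fold) stood at like levels in both groups, and Des was at 0 in cKO15. Their part in the Notch3 values was not tested.

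Notch1 had nearly the same mean in both groups, 9.74 ± 4.96 CPM in cKO and 10.0 ± 6.27 CPM in cHet (log2 −0.04, SE 0.49, edgeR adjusted p = 0.980). It had 5.13 CPM in cKO7, 16.6 in cKO9, 7.47 in cKO14 and 9.71 in cKO15, against 6.34 CPM in cHet8, 8.08 in cHet11, 19.3 in cHet12 and 6.28 in cHet14. A high library in each group, cKO9 and cHet12, set the spread, and without cHet12 the log2 value was 0.49 (edgeR adjusted p = 0.637). Neutrophil markers summed to 19713 CPM in cHet12, against 51.1 to 1408 CPM in the other cHet libraries and 24.7 to 1300 CPM in cKO. Macrophage markers summed to 2850 CPM in cHet12, against 185 to 861 CPM in the other cHet libraries and 116 to 340 CPM in cKO. Their part in the Notch values of cHet12 was not tested.

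Of the effectors, all of which encode basic helix-loop-helix repressors, Hey1 came nearest to the threshold. It had 182 CPM in cKO7, 82.3 in cKO9, 136 in cKO14 and 197 in cKO15, against 62.5 CPM in cHet8, 48.3 in cHet11, 43.5 in cHet12 and 83.1 in cHet14. A narrow overlap between cKO9 and cHet14 was the 1 exception to separate groups. Hey1 averaged 149 ± 51.6 CPM in cKO and 59.3 ± 17.7 CPM in cHet (log2 1.33, SE 0.30, edgeR adjusted p = 0.0814). It was called higher by DESeq2 (adjusted p = 0.000262) and voom (adjusted p = 0.0261), and by edgeR without cKO9 (log2 1.53, adjusted p = 0.0257).

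Hes1 had 104 CPM in cKO7, 33.9 in cKO9, 65.4 in cKO14 and 83.5 in cKO15, against 49.3 CPM in cHet8, 23.4 in cHet11, 27.4 in cHet12 and 30.0 in cHet14. Here too cKO9 lay within the cHet range, below cHet8. The means were 71.8 ± 29.8 CPM in cKO and 32.6 ± 11.5 CPM in cHet (log2 1.14, SE 0.36, edgeR adjusted p = 0.171). In the fit that holds the mesenchyme score, the log2 value of Hes1 was 0.40 (SE 0.42, edgeR adjusted p = 0.950). DESeq2 called it (adjusted p = 0.0144), voom did not (adjusted p = 0.0539), and edgeR called it without cKO9 (log2 1.37, adjusted p = 0.0413), where 3 of the 10 genes (Jag1, Hey1 and Hes1) and 3.67% of all tested genes were called higher.

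Hey2 had 3.68 CPM in cKO7, 2.999 in cKO9, 2.28 in cKO14 and 3.79 in cKO15, against 2.39 CPM in cHet8, 2.33 in cHet11, 1.83 in cHet12 and 10.3 in cHet14. The sign of its difference hung on cHet14, which stood far above the other 7 libraries. The log2 value was −0.41 with all libraries (SE 0.59, edgeR adjusted p = 0.791) and 0.53 without cHet14 (SE 0.35, edgeR adjusted p = 0.586).

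Heyl had 25.2 CPM in cKO7, 17.4 in cKO9, 31.0 in cKO14 and 23.2 in cKO15, against 31.7 CPM in cHet8, 10.3 in cHet11, 14.4 in cHet12 and 28.01 in cHet14. Its groups overlapped widely, and the mean in cKO lay within the range of cHet (24.2 ± 5.63 CPM in cKO, 21.1 ± 10.4 CPM in cHet, log2 0.20, SE 0.37, edgeR adjusted p = 0.843), and the log2 value turned to −0.54 with the mesenchyme covariate. Heyl is the Hey gene known from mural cells, whose markers are given with Notch3. Endothelial markers summed to 19.2 to 53.4 CPM over 12 genes in cKO and 26.6 to 53.9 CPM in cHet. Flt1, Tek, Emcn and Sox17 were at 0 in at least 1 library. Over the 8 libraries, the Pearson correlation with the mural score was 0.66 for Heyl and 0.29 for Notch3. With the endothelial score it was −0.17 for Hey2. The part of these cell types in the values was not tested.

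**Figure D2:**
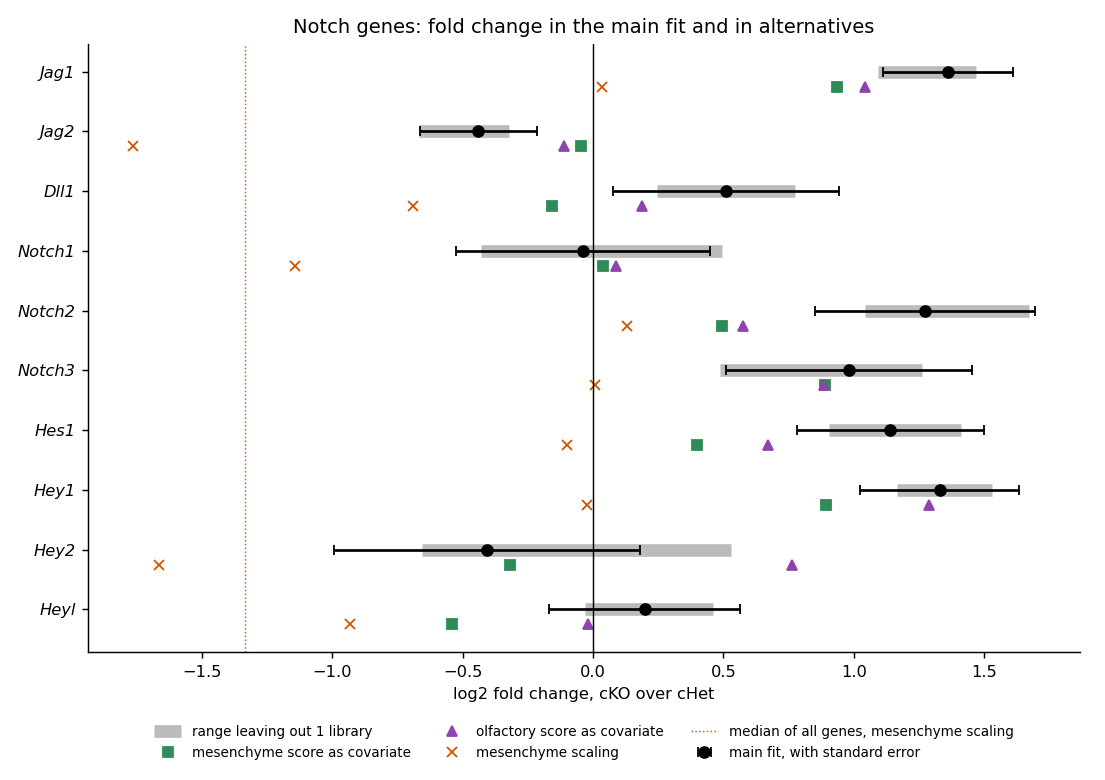
Log2 fold change of cKO over cHet (x axis) for the 10 Notch genes: the edgeR fit with its standard error (black), the range over the 8 fits that leave out 1 library (grey bar), the fits with a mesenchyme or olfactory neuron score as covariate (green squares, purple triangles) and scaling to mesenchyme markers (orange crosses). The dotted line is the median of all tested genes under that scaling (−1.34), and all crosses except those of Jag2 and Hey2 lie to its right.

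Scaling the libraries to the summed counts of the mesenchyme markers moved the median of all tested genes to a log2 value of −1.34. Relative to that shift, 8 of the 10 Notch genes lay above the median and Jag2 (−1.76) and Hey2 (−1.67) below it. On this scale Jag1 (0.03), Notch2 (0.13), Notch3 (0.01), Hey1 (−0.02) and Hes1 (−0.10) lay near 0. The scale rested mainly on collagen genes, which held most of the summed counts. Col1a1, Col1a2 and Col3a1 averaged 5558, 3412 and 7604 CPM in cKO, and 2386, 1701 and 2930 CPM in cHet. No gene in the table was called under this scaling by edgeR, although 11067 genes had an unadjusted p under 0.05.

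Levels of different genes can be set side by side per length of transcript. Expressed as mean CPM per kilobase of exon, Hey1 (45.7 ± 15.8) and Hes1 (35.2 ± 14.6) were the highest Notch transcripts in cKO. Their ranges over the libraries overlapped, while within each cKO library Hey1 was the higher of the pair. Jag1 (10.2 ± 3.45) and Jag2 (9.63 ± 3.09) followed as a second pair with overlapping ranges, and Heyl came next at 4.73 ± 1.10. Notch2 (2.48), Notch3 (2.16), Dll1 (1.17), Hey2 (0.69) and Notch1 (0.68) formed a low group in which each overlapped its neighbour in the order, and Heyl overlapped Notch2.

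In cHet the order differed at the ligands. Hey1 (18.2 ± 5.43), Hes1 (16.0 ± 5.64) and Jag2 (13.1 ± 1.83) overlapped at the top as mean CPM per kilobase of exon, while Jag1 stood at 3.96 ± 0.83, beside Heyl at 4.13 ± 2.02 and below the range of Jag2. The receptors Notch3 (1.09), Notch2 (1.03) and Notch1 (0.70), with Hey2 (0.92) and Dll1 (0.82), were again lowest, each overlapping its neighbour in the order. Jag1 and Jag2 thus stood at like levels in cKO, where in cHet Jag2 was the higher of the pair.

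The ratio of 2 genes within a library does not depend on how libraries are scaled. For Jag1 over Jag2 the ratio of counts was 1.01 in cKO7, 0.506 in cKO9, 0.761 in cKO14 and 1.57 in cKO15, against 0.386 in cHet8, 0.183 in cHet11, 0.206 in cHet12 and 0.272 in cHet14. Every cKO library had a higher ratio than every cHet library. The mean log2 ratio was −0.18 ± 0.69 in cKO and −1.99 ± 0.48 in cHet (SD, n = 4 each), a difference of 1.81 with an exact permutation p of 0.0286, the smallest that 4 against 4 libraries allow. It was 0.171 after adjustment over the 12 pairs of genes of the same class, so it did not pass, and leaving out 1 library gave differences from 1.54 to 2.08. Of the other 11 pairs, Hey1 over Hey2 alone had groups that did not overlap (difference 1.33, exact permutation p = 0.0286, adjusted p = 0.171), and the difference was 0.95 without cHet14, the library with the high Hey2. For Hes1 over Hey1 the difference was −0.21 (exact permutation p = 0.457), and for Notch2 over Notch3 it was 0.39 (exact permutation p = 0.371). These 12 ratios were added after the values of the genes had been seen.

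**Figure D3:**
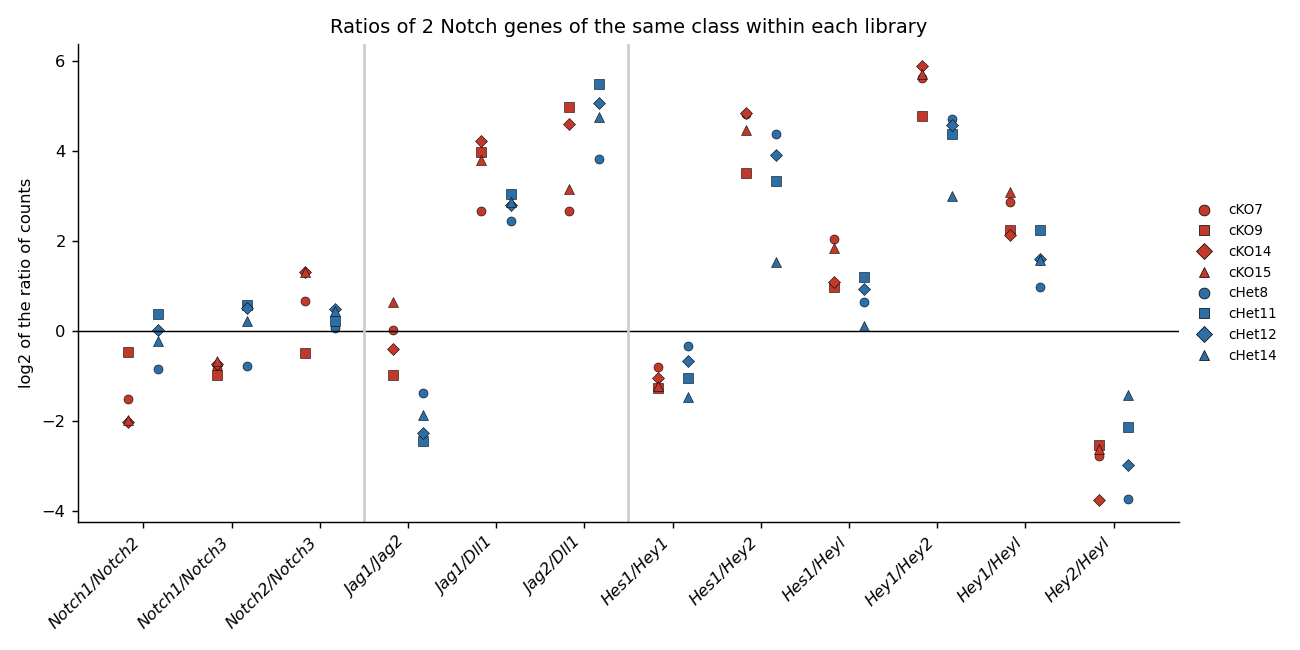
Log2 ratio of counts of 2 Notch genes of the same class (y axis) for 12 pairs (x axis), in the 4 cKO libraries (red, left of each pair) and the 4 cHet libraries (blue, right), 1 point per library. The groups are apart for Jag1/Jag2 and Hey1/Hey2 and overlap for the other 10 pairs.

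Several of the 10 genes had their extreme value within a group in cKO9 or in cHet8. In cKO9, Hes1, Hey1 and Heyl were the lowest and Jag2, Notch1 and Notch3 the highest of the cKO libraries, and cHet8 had the highest Hes1, Heyl, Jag1 and Dll1 and the lowest Jag2 of the cHet libraries. The mesenchyme score was lowest in cKO9 among cKO libraries (7.86) and highest in cHet8 among cHet libraries (8.03). Pearson correlations of log2 CPM with the mesenchyme score over the 8 libraries, given as a description since group and sorted material are shared, were 0.86 for Hes1, 0.85 for Notch2, 0.82 for Jag1 and 0.77 for Hey1, and −0.79 for Jag2. Those for Notch1 (−0.06) and Hey2 (−0.05) lay near 0. With the olfactory neuron score the signs were turned, −0.80 for Notch2, −0.78 for Hes1 and −0.77 for Jag1, and 0.72 for Jag2.

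**Figure D4:**
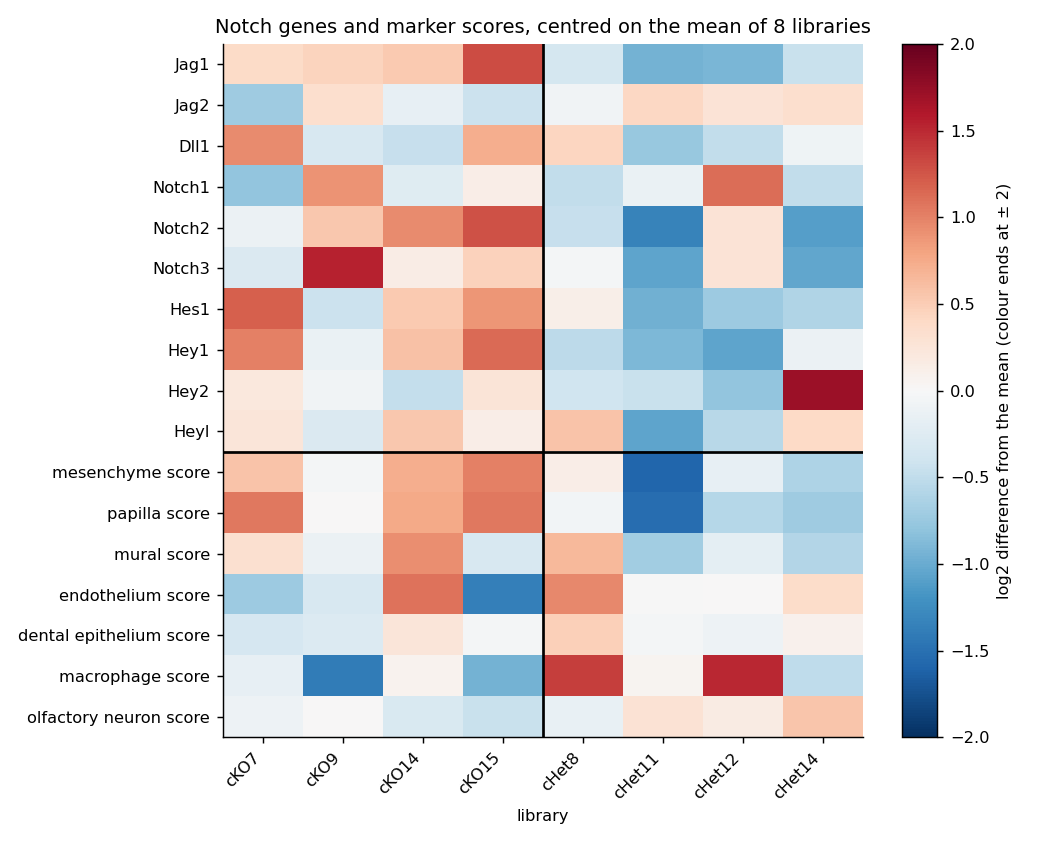
Log2 level of the 10 Notch genes and 7 marker scores (rows) in the 8 libraries (columns, cKO left of the vertical line), each row centred on its mean over the libraries, with red for higher and blue for lower. Hes1, Notch2, Jag1 and Hey1 run with the mesenchyme score, Jag2 runs against it, and Hey2 stands out in cHet14.

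For each gene the transcript with the most similar profile over the 8 libraries was looked up among 12465 or 12466 candidates with a mean of at least 5 CPM. Jag1 was most like the clock gene Per3 (Pearson r = 0.994 in log2 CPM), which rose to 38.7 CPM in cKO, against 14.4 CPM in cHet (edgeR adjusted p = 0.0425). Hes1 was most like Cope, which encodes a coat protein of transport vesicles (0.992), Hey1 like the adaptor gene Bcar1 (0.992) and Jag2 like Panct2 (0.988). The closest profiles of the remaining genes were those of Zfp710 for Notch1 (0.965), Ankrd44 for Notch2 (0.980), Phldb1 for Notch3 (0.965), Lyar for Dll1 (0.976), Fabp7 for Hey2 (0.954) and Acsl3 for Heyl (0.942). With 8 libraries and so many candidates, each of these is the highest value of a search, and for Hes1 the top 1% of candidates began at 0.960.

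The other genes of the pathway were read from the same fit in 5 groups, and of 44 listed genes 43 were tested, Hes7 having too few counts. Of these, 1 was called higher and 0 lower by edgeR, and at an unadjusted p under 0.05 there were 4 higher and 2 lower, against 10.8% and 6.33% of all tested genes. Their median log2 fold change was −0.01 (21 positive, 22 negative), near that of all tested genes. DESeq2 called 4 of the 43 higher and 1 lower, where it called 8.64% of its genes higher and 4.33% lower, and voom called 3 and 1, where it called 5.96% and 1.26%.

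The called gene was Dlk1, a membrane protein related to the Delta ligands that lacks their receptor-binding DSL domain. It had 101 CPM in cKO7, 57.9 in cKO9, 95.4 in cKO14 and 114 in cKO15, against 35.9 CPM in cHet8, 11.7 in cHet11, 26.7 in cHet12 and 16.1 in cHet14. All cKO libraries lay above all cHet libraries. Dlk1 averaged 92.1 ± 24.1 CPM in cKO and 22.6 ± 10.9 CPM in cHet, 4.08-fold higher (log2 2.03, SE 0.37, edgeR adjusted p = 0.0487). The call ended without any 1 of cKO7, cKO14, cKO15, cHet11, cHet12 or cHet14 (edgeR adjusted p from 0.1001 to 0.159). In the fit that holds the mesenchyme score, the log2 value was 1.07 (SE 0.19, edgeR adjusted p = 0.174). The receptor gene Notch4 (4.86 ± 2.03 CPM in cKO and 5.20 ± 1.03 CPM in cHet) and the ligand gene Dll4 (1.11 ± 1.01 CPM in cKO and 2.29 ± 0.61 CPM in cHet), both known from endothelium, were low in both groups, and Dll4 was at 0 in cKO7.

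Of 14 genes that process or glycosylate the receptors, none was called by edgeR (2 higher and 1 lower at an unadjusted p under 0.05). The largest values were those of Pofut1, which adds O-fucose to the receptors (29.9 ± 5.16 CPM in cKO and 15.9 ± 3.84 CPM in cHet, log2 0.91, edgeR adjusted p = 0.0921), and of the protease gene Furin (188 ± 23.2 CPM in cKO and 104 ± 38.9 CPM in cHet, log2 0.85, edgeR adjusted p = 0.131). Psen2, which encodes a catalytic subunit of gamma-secretase, stood at 73.2 ± 3.66 CPM in cKO and 93.7 ± 9.19 CPM in cHet (log2 −0.36, edgeR adjusted p = 0.136). DESeq2 called these 3 genes, and voom called Furin and Psen2.

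Among 12 genes of ubiquitin ligases and endocytic regulators, none was called by edgeR (1 higher and 0 lower at an unadjusted p under 0.05). Numbl, related to the Notch inhibitor Numb, averaged 70.1 ± 15.0 CPM in cKO and 44.7 ± 3.27 CPM in cHet (log2 0.65, edgeR adjusted p = 0.101), and it was called by DESeq2 and voom. The Deltex genes Dtx2 (log2 0.51) and Dtx4 (log2 −0.35) had opposite signs and did not pass. None of the 9 nuclear genes had an unadjusted p under 0.05, and Rbpj stood at 52.2 ± 19.7 CPM in cKO and 50.5 ± 6.82 CPM in cHet (log2 0.05, edgeR adjusted p = 0.954). Of the 3 tested further targets none was called by edgeR. Hes6, a Hes-related gene known from neuronal precursors, averaged 78.1 ± 9.54 CPM in cKO and 100.6 ± 16.8 CPM in cHet (log2 −0.37, edgeR adjusted p = 0.254). Its log2 value was −0.17 with the olfactory neuron covariate and −0.04 with the mesenchyme covariate. Olfactory neuron markers were lower in cKO in 10 of 10 genes without passing, against 11283 of all 21508 tested genes. These markers belong to 1 cell type, and their part in the Hes6 value was not tested. Hes5 stood at 4.24 ± 1.73 CPM in cKO and 5.21 ± 3.88 CPM in cHet (log2 −0.30, edgeR adjusted p = 0.834).

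**Figure D5:**
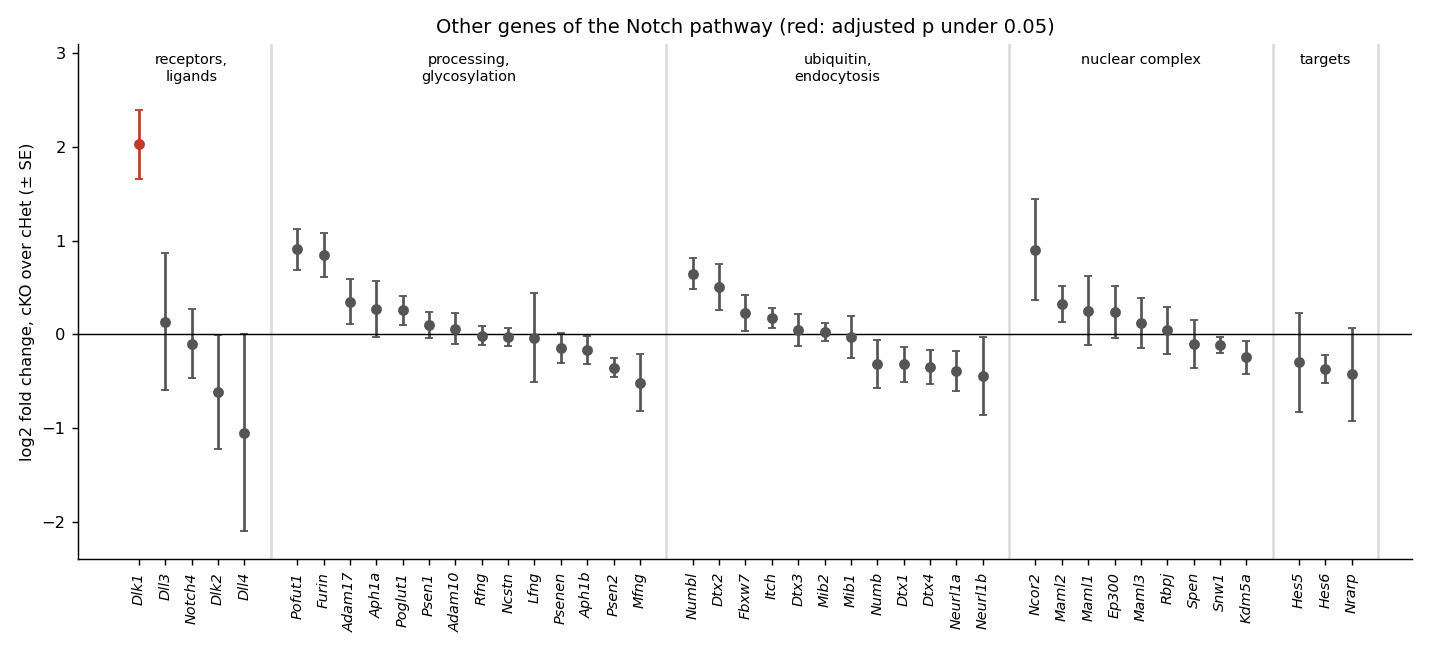
Log2 fold change of cKO over cHet with its standard error (y axis) for 43 other genes of the Notch pathway (x axis), grouped by role and ordered by size within a group. Dlk1, in red, is the 1 gene with an adjusted p under 0.05, and the other 42 lie between −1.05 and 0.91.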

How the data were processed

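Per the labels' protocols, cDNA of the sorted cells was made with SMART-Seq v4 reagents. These keep no strand information, so reads of overlapping antisense genes cannot be told apart. The values are whole-number counts per Ensembl gene as the authors deposited them, with no normalization. Trim Galore and STAR, with GRCm39 and mm39 as builds, are named in the submitters' processing notes. The sources used here give no counting tool, annotation or version. Of 56748 identifiers 52073 matched a symbol without their version suffix, and the identifier with the largest total stood for a symbol. Column numbers match no sample title, so columns were assigned to their group only.

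The fit of all 8 libraries used edgeR 4.0.16 in R 4.3.3 (TMM factors, default filter by group, quasi-likelihood F test, genotype as sole term, Benjamini-Hochberg over 21508 genes, threshold 0.05). CPM are TMM-scaled. The standard error is approximate (log2 fold change over the root of F). Log2 CPM use a prior count of 2, and marker scores are means of log2 CPM. Exact permutation tests ran over the 70 splits of 4 against 4 libraries, two-sided, smallest p 0.0286. Exon lengths are unions of GENCODE M21 exons on GRCm38, not the build of the counts. Other fits were DESeq2 1.42.0, limma 3.58.1 voom with quality weights, other scalings and filters, covariates and omission of each library. The edgeR, DESeq2 and voom fits of all 8 libraries were tested on data simulated with edgeR's dispersion trend, a setting that does not rank the tools on the real data. The share of false calls there was below the threshold for edgeR and voom and well above it for DESeq2. The other scalings, filters, covariates and omissions were not simulated. Depth was alike in all libraries; the biological coefficient of variation was 0.553.

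The members, lists and alternatives were chosen with earlier results of these data known. Named were the 10 members and, of the further pathway genes, each called gene, the 8 with the smallest p, and Notch4, Dll4, Rbpj and Hes5. Ctnnb1 and Cxcl12, the closest profile of each member, and defining markers completed the rule. Endothelial markers at 0, Des, Cspg4, Abcc9, Kcnj8, Prrx1, Dcn, Lum, Col3a1 and Hes7 were named after their values were seen.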

Additional observations from a re-analysis of the deposited data

Results flagged for a closer look

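In 5 of the 70 groups of 4 libraries examined, the gap between 1 library and the other 3, as a share of the group's range, was above Dixon's 95% critical value, which chance passes in about 1 group in 20. Hey2 was at 10.3 CPM in cHet14, against 1.83 to 2.39 CPM in the other cHet libraries. In the same library Hes5 was at 11.01 CPM, against 2.85 to 3.64 CPM. Notch1 was at 19.3 CPM in cHet12, against 6.28 to 8.08 CPM in the other cHet libraries. Jag1 was at 89.2 CPM in cKO15, against 47.0 to 51.9 CPM in the other cKO libraries, and without cKO15 its log2 fold change was 1.10 (edgeR adjusted p = 0.120). Psen2 was at 78.6 CPM in cKO7, against 71.0 to 71.6 CPM in the other cKO libraries.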

How the results depend on the processing

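No paired analysis was possible because the columns carry none of the replicate numbers of the sample titles. Against 1 gene higher and 0 lower of the 10 in the edgeR fit, the number higher was 4 by DESeq2, 3 by voom, 2 at a threshold of 0.10, and 0 with RLE factors, library size alone, robust dispersions, mesenchyme scaling or either score as covariate. For the 43 further genes (1 higher, 0 lower) it was 4 higher and 1 lower by DESeq2, 3 and 1 by voom, 2 and 0 at 0.10, and 0 higher with RLE factors, robust dispersions, mesenchyme scaling or either covariate. Over all genes (232 higher, 12 lower) DESeq2 gave 1704 and 853, voom 1281 and 271, a threshold of 0.10 704 and 62, the mesenchyme covariate 10 and 6, the olfactory covariate 1 and 0, mesenchyme scaling 0 and 0, and lower calls were 5 without a filter and 7 with robust dispersions. The counts of 0 by edgeR came with 1391 (olfactory covariate) or 11067 (mesenchyme scaling) genes at an unadjusted p under 0.05. Leaving out 1 library gave 0 to 3 of the 10 and 0 to 2 of the 43 higher, none lower, and 0 to 816 higher and 0 to 144 lower over all genes. With all 8 libraries, members whose groups did not overlap were 1 above and 0 below, against 6.46% and 3.68% of all tested genes. They were 1 to 3 above and 0 to 1 below without 1 library, and 0 above with mesenchyme scaling. Shares of all genes were not computed for those settings, and groups separate more readily with 1 library fewer, so these counts are not a result about the members.

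The sign turned with mesenchyme scaling for Dll1 (−0.69), Hes1 (−0.10), Hey1 (−0.023), Heyl (−0.93), Pofut1 (−0.27), Numbl (−0.69), Furin (−0.34), Dtx2 (−0.65) and Rbpj (−1.14), where the median of all genes was −1.34, and with library size alone for Rbpj (−0.037). With the mesenchyme covariate it turned for Notch1 (0.037), Dll1 (−0.16), Heyl (−0.54), Notch4 (0.30) and Hes5 (0.075), and with the olfactory covariate for Notch1 (0.090), Hey2 (0.76), Heyl (−0.020), Notch4 (0.26) and Hes5 (0.63). Leaving out 1 library gave log2 values from −0.43 to 0.49 for Notch1, −0.66 to 0.53 for Hey2, −0.031 to 0.46 for Heyl, −0.35 to 0.13 for Notch4, −0.23 to 0.17 for Rbpj and −0.56 to 0.34 for Hes5. No gene was called in a fit in which its sign turned. The cause of a turned sign was not tested.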

Other observations

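Jag2 and Hes1 had mirrored profiles. Of the 45 pairs among the 10 genes they had the correlation farthest from 0 over the 8 libraries (Pearson r = −0.978, Spearman rho = −0.929, and r = −0.954 without the 2 libraries farthest from the median of Jag2), given as a description of a pair chosen after its values were seen. Large correlations were not rare here. In the search for the most similar profile, the top 1% of 12465 candidates began at Pearson r = 0.960 for Hes1 and 0.927 for Jag2, and negative correlations were not searched. In cKO the order was strict, with Hes1 at 104, 83.5, 65.4 and 33.9 CPM where Jag2 was at 46.7, 56.9, 68.2 and 96.6 CPM. In cHet the library with the highest Hes1, cHet8 (49.3 CPM), had the lowest Jag2 (72.8 CPM), and the library with the lowest Hes1, cHet11 (23.4 CPM), had the highest Jag2 (102 CPM). Between them the order failed, since cHet14 lay above cHet12 both in Hes1 (30.0 and 27.4 CPM) and in Jag2 (96.7 and 92.4 CPM). Hes1 followed the mesenchyme score (Pearson r = 0.86) and Jag2 ran against it (−0.79), and the part of the makeup of the libraries in this relation was not tested. Jag1 and Hey1 (Pearson r = 0.90, Spearman rho = 0.81) and Hes1 and Hey1 (Pearson r = 0.90, Spearman rho = 0.86) had the highest Pearson correlations among the 45 pairs. By Spearman's rho, Notch2 and Notch3 (0.86), Notch2 and Jag1 (0.86) and Dll1 and Hes1 (0.83) stood above Jag1 and Hey1.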
